A study of Mus musculus with 60 samples.

Results

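Fibroblasts of the Ercc1 line that had been reprogrammed for 4 days without VC were compared with fibroblasts of the same line reprogrammed for 2 days with VC, a pair of groups that lie close together on the main axis of reprogramming. The members were 6 of the 60 libraries of the series, 3 in each group, and they were chosen by their labels from the 36 libraries of the reprogramming experiment. All 6 were polyA-selected RNA from tail tip fibroblasts labelled male, 8 weeks old and of genotype 4FJ_ERCC1_(d/-), called D/KO here. These cells carry 1 truncated allele of Ercc1 and no intact one, a doxycycline-inducible cassette of Oct4, Klf4, Sox2 and c-Myc (OSKM) at the Col1a1 locus, and the rtTA transactivator at ROSA26. The first group received doxycycline at 2 µg/ml for 4 days. The second received the same doxycycline for 2 days together with ascorbic acid at 50 µg/ml and the GSK3 inhibitor CHIR (CHIR-99201 in the labels) at 3 µM, the pair abbreviated VC. The same contrast was taken in the line labelled WT, whose genotype is 4FJ_(+/-)_OCT4-GFP and whose cells were female and 22 weeks old, so line, genotype, sex and age change together there. Time and VC also change together, and their shares in any difference cannot be told apart from these 6 libraries alone. No label says that the libraries of a group came from separate animals or cultures. The p-values measure the spread between libraries of the same group, which may be technical. That spread was estimated over all 36 reprogramming libraries fitted together, not from these 6 alone.

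When OSKM are switched on, fibroblasts lose mesenchymal identity, divide faster and begin to acquire epithelial features long before any pluripotency gene network is active. GSK3 marks β-catenin for destruction, so an inhibitor of it stabilises β-catenin and switches on Wnt target genes such as Axin2. Ascorbic acid is the cofactor of the prolyl and lysyl hydroxylases that mature collagen and of the TET and JmjC enzymes that remove DNA and histone methylation. ERCC1 is the partner of the nuclease XPF (Ercc4), which cuts damaged DNA in nucleotide excision repair and in the repair of crosslinks.

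The promoters of 5 cell cycle genes, all lower at day 4, are shown because most S phase and mitosis genes tested were lower at day 4. Each is the 250 bases before the gene's start, from RefSeq on GRCm38.p6 and written 5′ to 3′ on the gene's own strand. In the first pair, capitals mark the E2F letters TTTGGCGC or TTTCGCGC on either strand, and in the other three they mark the cell cycle homology region (CHR) letters TTTGAA on either strand.
Pola1, the catalytic subunit of the polymerase that primes replication (chrX:93632156-93632405, minus strand): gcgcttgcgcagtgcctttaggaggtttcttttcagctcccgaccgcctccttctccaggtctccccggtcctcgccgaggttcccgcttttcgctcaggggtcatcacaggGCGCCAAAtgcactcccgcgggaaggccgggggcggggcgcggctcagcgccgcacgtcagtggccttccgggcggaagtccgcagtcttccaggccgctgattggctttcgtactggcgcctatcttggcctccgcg
Mcm6, a subunit of the replicative helicase (chr1:128359706-128359955, minus strand): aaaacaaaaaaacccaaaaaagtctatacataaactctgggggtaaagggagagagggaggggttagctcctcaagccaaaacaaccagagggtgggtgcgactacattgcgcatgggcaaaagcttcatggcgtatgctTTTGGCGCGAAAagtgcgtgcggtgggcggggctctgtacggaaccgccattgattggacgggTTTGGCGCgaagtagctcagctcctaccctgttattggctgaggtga
Mki67, the proliferation marker Ki-67 (chr7:135716380-135716629, minus strand): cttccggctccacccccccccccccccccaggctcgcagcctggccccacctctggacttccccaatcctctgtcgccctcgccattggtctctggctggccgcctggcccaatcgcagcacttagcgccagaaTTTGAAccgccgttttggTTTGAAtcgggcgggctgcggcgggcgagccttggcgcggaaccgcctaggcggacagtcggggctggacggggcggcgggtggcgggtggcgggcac
Ect2, an exchange factor needed for cytokinesis (chr3:27153855-27154104, minus strand; 1 of 2 promoters listed for the gene): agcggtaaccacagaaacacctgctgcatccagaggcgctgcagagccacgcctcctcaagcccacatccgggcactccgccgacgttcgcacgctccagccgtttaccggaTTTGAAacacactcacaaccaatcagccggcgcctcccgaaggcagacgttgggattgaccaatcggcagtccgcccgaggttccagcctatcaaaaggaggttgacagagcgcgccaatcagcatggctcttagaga
Ube2c, a ubiquitin-conjugating enzyme of the anaphase-promoting complex (chr2:164769679-164769928, plus strand): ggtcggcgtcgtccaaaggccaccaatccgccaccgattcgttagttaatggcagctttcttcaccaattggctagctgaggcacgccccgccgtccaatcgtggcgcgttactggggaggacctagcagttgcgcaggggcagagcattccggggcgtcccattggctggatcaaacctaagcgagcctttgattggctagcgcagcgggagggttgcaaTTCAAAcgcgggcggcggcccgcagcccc
In Mcm6 the capitals cover 3 matches, of which 2 overlap on opposite strands. Over windows of 300 bases that also hold the first 50 bases after the start, the E2F letters were found in 10 of the 30 S phase genes with a promoter in the table (33.3%), against 251 of all 27025 genes (0.929%). The CHR letters were found in 15 of 22 mitosis genes (68.2%), against 5466 of all genes (20.2%), and the letters CCAAT in 19 of 22 (86.4%), against 11096 (41.1%). Other motifs were searched in the same way. The E-box CACGTG was found in 4 of 22 nucleolar ribosome biogenesis genes (18.2%, against 8.09% of all genes). The TCF letters CTTTGAT were found in 2 of 11 β-catenin targets (18.2%, against 4.29%). The CArG box was found in 3 of 13 contractile genes (23.1%, against 1.81%). All genes here include genes not expressed in these cells. These matches are descriptions of the letters and do not show that a factor is bound there.

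The 6 libraries held between 17008108 and 18437695 counts each. The day 4 libraries differed more among themselves than the day 2 plus VC libraries did. The variance between pairs over genes was 17.1, 25.5 and 60.3 times the counting noise at day 4, with replicate 3 in both of the wider pairs, and 7.87, 11.6 and 12.1 times at day 2 plus VC. Each count was therefore also taken without day 4 replicate 3. Levels are in CPM, the read counts divided by each library's TMM-scaled total on a common scale. Fold changes are log2 of day 4 over day 2 plus VC with their standard error (SE), so a positive value means a higher level at day 4, and a value printed as a number ± another with an adjusted p is this fold change and its SE. Adjusted p-values are from the edgeR quasi-likelihood test with Benjamini-Hochberg adjustment over 15832 genes, and the threshold was 0.05. Xist had 0 or 1 count and Ddx3y between 1136 and 1700 counts in every one of the 6 libraries, which matches the labelled sex. Ercc1 itself was measured at 9.61, 9.35 and 10.1 CPM at day 4 and 12, 13.3 and 13.6 CPM at day 2 plus VC (log2 fold change -0.42 ± 0.17 SE, adjusted p = 0.0573). The strand setting of the counting is not given in the sources used here, so reads cannot be told apart from those of an overlapping gene for Ercc1, Acvr2a, Ankrd37, Atf5, Cdk2, Cdk4, Dclre1c, Ddit3, Dkc1, Fanca, G6pdx, Gapdh, Glipr1, Hoxa4, Ldlrad4, Mmp11, Nop56, Slc16a3, Thbs3, Timp1, Timp3, Txnrd1, Ube2c, Wipf3 and Xrcc6. A count over the whole gene does not check the mutation, because a truncated allele can still be transcribed.

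On the first principal component (PC1) of the 18 D/KO libraries the 2 groups were neighbours, and on PC2 and PC4 they were far apart. PC1, computed from the 500 most variable genes, held 77.9% of the variance and ordered the groups by the progress of reprogramming, from -55.0 at day 0 through 8.51 at day 2 to 51.6 at day 4 plus VC. Day 4 lay at 30.8 ± 3.31 and day 2 plus VC at 24.6 ± 1.38 (SD, n = 3 each), a difference of 6.15. PC2, with 10.5% of the variance, placed day 4 at 15.1 ± 0.316 and day 2 plus VC at -11.4 ± 1.37. The libraries with VC all had negative PC2 scores and those without it positive ones. On PC3, with 4.44%, they lay at -2.8 and -10.8, a difference of 8.03 that was 2.5 with 2000 genes. PC4, with 2.67%, placed them at 12.4 ± 2.66 and -10.4 ± 1.5, the opposite ends of that axis. When all genes entered in place of the 500, the difference on PC1 changed sign to -2.68 and that on PC2 grew to 63.8, so the order of the 2 groups on PC1 depended on the genes used while their separation on PC2 did not.

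**Figure D1:**
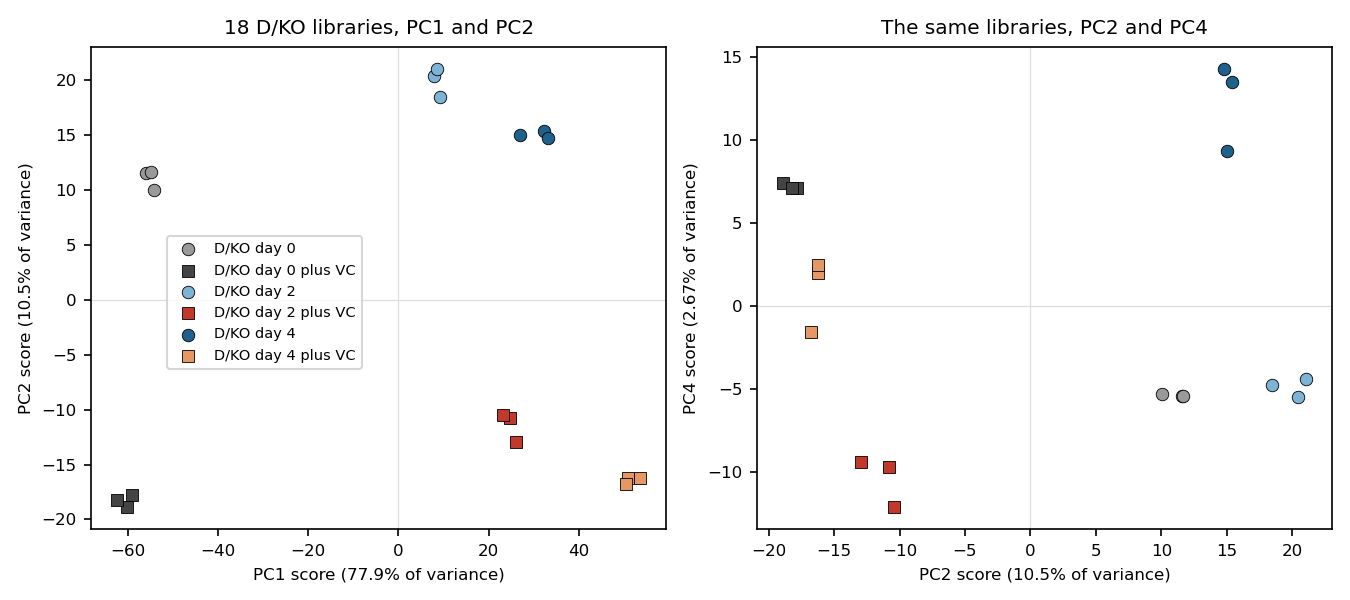
Principal component scores of the 18 D/KO libraries, 1 point per library, circles without and squares with VC. The left panel plots PC1 (77.9% of the variance) against PC2 (10.5%), where day 4 (30.8) and day 2 plus VC (24.6) are close on PC1 and apart on PC2 (15.1 and -11.4), and the right panel plots PC2 against PC4 (2.67%), where they lie at 12.4 and -10.4.

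A large part of the transcriptome separated the 2 groups. Of the 15832 genes, 2568 (16.2%) were higher and 2378 (15.0%) lower at day 4. With scaling by library totals in place of TMM, which put the median log2 fold change of all genes at 0.0905, the split was 3149 higher and 1759 lower. Changes of at least 2-fold were fewer and leaned upward, with 876 genes higher (5.53%) and 554 lower (3.50%). The groups did not overlap in CPM for 6638 genes (41.9%). The median log2 fold change of all genes was 0.0067, against which the medians of the gene lists are read. Counts of called list members are read against the 31.2% of all genes called in either direction. In bulk RNA, fewer cells of a type and less RNA per cell cannot be told apart, and this holds for every list described.

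The genes that stood farthest above their day 2 plus VC level coded for secreted factors, vessel wall proteins and signalling regulators. Elastin (Eln, ENSMUSG00000029675, GRCm39 chromosome 5, 134731447 to 134776177, minus strand), the elastic fibre protein of arteries and skin, was measured at 1657, 1662 and 1155 CPM at day 4 and 155, 109.6 and 54.3 CPM at day 2 plus VC, a 14.0-fold difference (log2 fold change 3.81 ± 0.33 SE, adjusted p = 3.19e-11), with no overlap between groups. Day 2 without VC lay between at 302 CPM and day 4 plus VC at 177 CPM. Sostdc1, a secreted antagonist of BMP and Wnt ligands, was at 13.5, 16.2 and 13.4 CPM at day 4 and 0.232, 0.178 and 0.168 CPM at day 2 plus VC (6.17 ± 0.48, adjusted p = 1.43e-11). Rgs5, a regulator of G protein signalling typical of pericytes, was at 7.44, 6.06 and 10.2 CPM against 0.0579, 0 and 0.392 CPM (5.62 ± 0.46, adjusted p = 1.05e-11). Both were close to absent at day 2 plus VC and present in each day 4 library.

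Ccdc3, a secreted protein of fat and vessel wall cells, had the smallest p-value of all genes. It stood at 83, 78.5 and 64.8 CPM at day 4 and 4.17, 5.86 and 4.2 CPM at day 2 plus VC (log2 fold change 3.99 ± 0.16 SE, adjusted p = 1.22e-19). Nos1, the neuronal nitric oxide synthase, was at 36.9, 32.1 and 33.5 CPM at day 4 and 2.43, 2.49 and 2.63 CPM at day 2 plus VC (3.76 ± 0.28, adjusted p = 1.38e-11). In day 2 cells without VC, Nos1 was at 2.74 CPM, near its day 2 plus VC level, so its difference from day 2 was 3.63 for day 4 (adjusted p = 1.38e-10) and -0.13 for day 2 plus VC (adjusted p = 0.801). Ppp1r3c, a glycogen-targeting subunit of protein phosphatase 1 (4.83 ± 0.43, adjusted p = 7.25e-11), Pitpnm3, a phosphatidylinositol transfer protein (4.0 ± 0.33, adjusted p = 1.99e-11), Trim66 (3.99 ± 0.33, adjusted p = 1.63e-11), Dapk2, a death-associated kinase (3.79 ± 0.40, adjusted p = 4.87e-09), and Wipf3 (4.43 ± 0.61, adjusted p = 2.28e-06) were higher as well. Their day 4 libraries lay between 5.54 CPM (Ppp1r3c) and 12.3 CPM (Dapk2), and none of their day 2 plus VC libraries exceeded 1.06 CPM. Ly6a2 had the highest fold change of the genes named by size (6.33 ± 0.86, adjusted p = 1.09e-06), but it is nearly identical to Ly6a and its reads may be split between them.

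Among the other genes with the smallest p-values, Aldh1a3, which makes retinoic acid, was at 83, 79.4 and 104 CPM at day 4 and 11.8, 13.1 and 11.5 CPM at day 2 plus VC (2.88 ± 0.16, adjusted p = 1.03e-15). Sorbs2, an adaptor of actin fibres, was at 30.2, 25.8 and 30.3 CPM against 4.23, 4.2 and 5.09 CPM (2.67 ± 0.15, adjusted p = 4.92e-16). Mturn stood at 53, 53.4 and 41.5 CPM against 9.61, 11.2 and 10.5 CPM (2.24 ± 0.12, adjusted p = 4.92e-16). Dkk3, a secreted protein of the Dickkopf family, was 3.19-fold higher at day 4 (1.68 ± 0.079, adjusted p = 1.36e-17), and its level at day 2 without VC (186 CPM) was near that of day 4 (184 CPM), whereas day 2 plus VC lay at 57.6 CPM.

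Matrix and matrix-associated proteins led the genes with the smallest p-values among those lower at day 4. Tenascin N (Tnn, ENSMUSG00000026725, GRCm39 chromosome 1, 159912599 to 159981150, minus strand) was at 14.2, 10.4 and 17.9 CPM at day 4 and 132, 124 and 145 CPM at day 2 plus VC, a 9.46-fold lower level at day 4 (log2 fold change -3.24 ± 0.16 SE, adjusted p = 5.9e-17). Cpxm1, a secreted carboxypeptidase-like protein, was at 5.59, 5.49 and 7.61 CPM at day 4 and 65.4, 59.6 and 56.9 CPM at day 2 plus VC (-3.28 ± 0.17, adjusted p = 1.7e-16). Aebp1, a collagen-binding protein, was at 254, 226 and 364 CPM at day 4 and 1159, 1148 and 1224 CPM at day 2 plus VC (-2.06 ± 0.11, adjusted p = 6.22e-16). None of these groups overlapped. Lumican (Lum), a small proteoglycan that binds collagen fibrils, was at 38.9, 41.8 and 39.4 CPM at day 4 and 208, 198 and 179 CPM at day 2 plus VC (-2.28 ± 0.14, adjusted p = 6.58e-15), and dermatopontin (Dpt), another collagen-binding protein, at 36.3, 30.4 and 58.3 CPM at day 4 and 228, 225 and 165 CPM at day 2 plus VC (-2.3 ± 0.23, adjusted p = 1.39e-09). Thbs3, a thrombospondin (-2.14 ± 0.12, adjusted p = 8.83e-16), Sfrp2, a secreted Wnt modulator (-2.37 ± 0.31, adjusted p = 2.5e-07), Dpep1, a membrane dipeptidase (-3.12 ± 0.22, adjusted p = 1.5e-13), Glipr1 (-2.32 ± 0.32, adjusted p = 6.57e-07) and AI593442 (-2.42 ± 0.30, adjusted p = 7.01e-08) were lower as well. For Tnn, Cpxm1, Dpt, Lum and Dpep1 the highest D/KO mean was that of day 0 plus VC, at 1299, 214, 741, 916 and 157 CPM, before any doxycycline.

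Outside the matrix, the C-type lectin Clec2g was at 0.597, 0.104 and 0.486 CPM at day 4 and 13.7, 14 and 6.88 CPM at day 2 plus VC (-4.85 ± 0.46, adjusted p = 3.18e-10). Day 4 plus VC was higher still, at 27.5 CPM, while both day 0 groups were under 1 CPM. Carbonic anhydrase 12 (Car12) was lower at day 4 (-3.29 ± 0.45, adjusted p = 5.52e-07), as was Lgals7, a galectin of stratified epithelium (-2.63 ± 0.25, adjusted p = 3.11e-10). Acot1, a fatty acyl-CoA thioesterase (-2.74 ± 0.28, adjusted p = 1.63e-09), and Ces1f, a carboxylesterase (-2.58 ± 0.29, adjusted p = 3.46e-08), were lower too, and both have near-identical neighbours among which reads may be split.

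**Figure D2:**
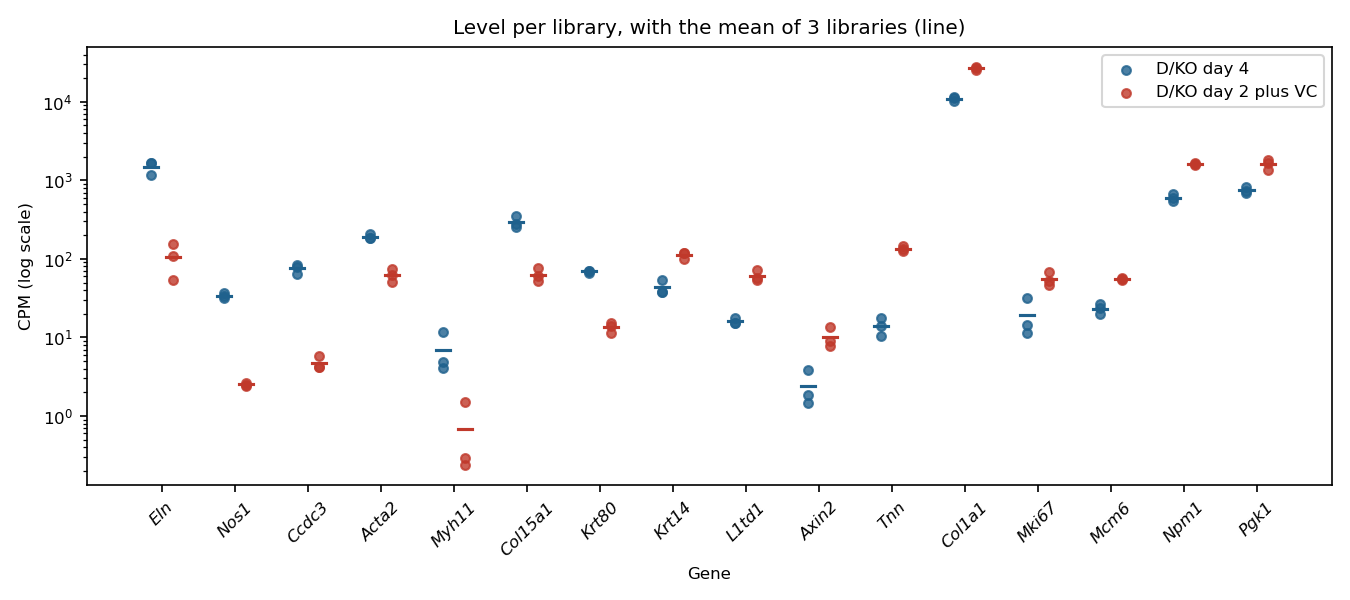
CPM on a log scale of 16 genes in each of the 3 day 4 and 3 day 2 plus VC libraries, 1 point per library with a line at the group mean. Eln, Nos1, Ccdc3, Acta2, Myh11, Col15a1 and Krt80 are higher at day 4, and Krt14, L1td1, Axin2, Tnn, Col1a1, Mki67, Mcm6, Npm1 and Pgk1 are lower, with no overlap between the groups.

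Smooth muscle contractile genes were mostly higher at day 4. Of 16 tested, 11 were higher, 1 was lower, and the median log2 fold change was 1.01. Myh11, the smooth muscle myosin heavy chain (ENSMUSG00000018830, GRCm39 chromosome 16, 14012399 to 14109236, minus strand), was at 4.88, 4.02 and 11.7 CPM at day 4 and 0.289, 0.237 and 1.51 CPM at day 2 plus VC (log2 fold change 3.3 ± 0.50 SE, adjusted p = 2.95e-06), with replicate 3 the highest library of its group on both sides. Smooth muscle α-actin (Acta2) was at 182, 205 and 182 CPM at day 4 and 50.5, 74.1 and 62.1 CPM at day 2 plus VC (1.61 ± 0.17, adjusted p = 2.29e-09), and the highest day 2 plus VC library was below every day 4 library. Mylk, the kinase that activates smooth muscle myosin, was at 12.1, 10.9 and 19.6 CPM at day 4 and 4.28, 3.2 and 2.63 CPM at day 2 plus VC (2.07 ± 0.21, adjusted p = 1.58e-09). Desmin (Des), the intermediate filament of muscle, was higher by 1.9 ± 0.27 (adjusted p = 1.08e-06) and the myosin light chain Myl9 by 1.19 ± 0.17 (adjusted p = 7.8e-07). Tpm2, a tropomyosin, was the exception and was lower (-0.71 ± 0.13, adjusted p = 3.84e-05).

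Day 4 was not the group with the highest Acta2 level. Acta2 was at 1158 CPM at day 0, 299.6 CPM at day 2 and 189.6 CPM at day 4 without VC, and it stood at 584, 62.2 and 29.7 CPM at days 0, 2 and 4 with VC. Relative to day 2, Acta2 differed by -0.66 at day 4 (adjusted p = 0.00543) and by -2.27 at day 2 plus VC (adjusted p = 1.34e-12). These contrasts share the day 2 libraries, and the compared difference is the first minus the second. Acta2 thus stood farther below its day 0 level after 2 days with VC than after 4 days without it.

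Markers of endothelial and Schwann cells, which a tail tip culture can hold, were mostly higher at day 4, as this list was. Their part in it was not tested. Of 6 endothelial markers tested, 5 were higher at day 4, with a median of 0.72, and their summed level was 306.9 to 333 CPM at day 4 and 187.5 to 215 CPM at day 2 plus VC. Pecam1, an adhesion molecule of endothelium, was at 134, 128 and 116 CPM at day 4 and 77.1, 65.7 and 75.2 CPM at day 2 plus VC (0.79 ± 0.14, adjusted p = 2.68e-05), and the endothelial receptor Kdr and the tight junction protein Cldn5 were higher as well (1.42 and 1.96). Of 5 Schwann cell markers, 4 were higher, with a median of 2.47 and a summed level of 15.4 to 20.5 CPM against 4.76 to 6.81 CPM. Only 1 had at least 10 counts in each compared library, and it was higher by 1.11, so the median rests on low counts. Sox10, the transcription factor that defines that lineage, was at 3.91, 3.97 and 2.75 CPM at day 4 and 0.521, 0.296 and 0.56 CPM at day 2 plus VC (2.93 ± 0.67, adjusted p = 0.000821). The muscle regulators Myod1, Myog and Pax7 and the pigment cell genes Dct, Mlana and Tyr had 0 counts in all 6 libraries, and of the muscle and pigment cell lists only Des and Mitf (1.29 ± 0.19, adjusted p = 2.14e-06) were called.

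Of 7 keratinocyte markers tested, 3 were lower and 0 higher, with a median of -0.67 that became -0.40 without day 4 replicate 3 and -0.088 without the expression filter and with summed levels of 602 to 737 CPM at day 4 and 957 to 1082 CPM at day 2 plus VC. Of 6 immune markers, 2 were called higher, a share of 33.3% near the 31.2% of all genes. With at least 10 counts in each compared library 1 was left and 0 were called. The summed level was only 6.64 to 6.95 CPM against 4.53 to 6.25 CPM, and Cd3e had no counts. No immune marker was called without day 4 replicate 3 or without day 2 plus VC replicate 1. In the same way 1 was called without day 4 replicate 2 or day 2 plus VC replicate 2 or 3. Ptprc, the leukocyte marker CD45, was at 2, 3 and 4 counts at day 4 and 0 in each day 2 plus VC library, too few for a fold.

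The fibroblast markers themselves were split. Of 16, 3 were higher and 5 lower (median -0.20), and their summed level was 44030 to 45930 CPM at day 4 and 75070 to 75240 CPM at day 2 plus VC. Type I collagen made up a large part of that sum. Col1a1 was at 11260, 11490 and 10220 CPM at day 4 and 25810, 27870 and 26750 CPM at day 2 plus VC (-1.29 ± 0.16, adjusted p = 8.21e-08), and Col1a2 at 9793, 9271 and 9996 CPM at day 4 and 17350, 16240 and 16980 CPM at day 2 plus VC (-0.80 ± 0.14, adjusted p = 1.94e-05). The 2 chains together took 2.16 to 2.20% of all counts at day 4 and 4.30 to 4.36% at day 2 plus VC. Decorin (Dcn), a proteoglycan, and vimentin (Vim), the mesenchymal intermediate filament, were lower (-0.58 ± 0.17, adjusted p = 0.00939 and -0.63 ± 0.13, adjusted p = 4e-04). The PDGF receptor Pdgfrb (0.48 ± 0.086, adjusted p = 3.78e-05) and the collagen receptor kinase Ddr2 (0.64 ± 0.15, adjusted p = 0.000799) were higher.

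Collagen chains went both ways. Of 27 tested, 5 were higher and 9 lower, with a median of -0.31 that was -0.12 without day 4 replicate 2, -0.16 without day 4 replicate 1, -0.19 without day 2 plus VC replicate 1 and -0.53 without day 4 replicate 3. Of the 10 fibrillar chains 4 were lower and 0 higher, and of the 17 network, basement membrane and fibril-associated chains 5 were lower and 5 higher. Without day 4 replicate 3 the lower chains rose from 9 to 14. Type XIV collagen (Col14a1), which sits on fibril surfaces, was at 51.8, 38.8 and 56.1 CPM at day 4 and 5.33, 6.45 and 4.37 CPM at day 2 plus VC (3.18 ± 0.21, adjusted p = 3.2e-14), and type XV collagen (Col15a1), of vascular basement membrane, at 279.9, 253 and 354 CPM at day 4 and 77, 52 and 60.5 CPM at day 2 plus VC (2.23 ± 0.15, adjusted p = 4.17e-14). The groups did not overlap for either gene. Col8a2 (2.5) was higher, whereas the basement membrane chains Col4a5 (-1.2 ± 0.16, adjusted p = 2.5e-07) and Col4a6 (-1.94 ± 0.36, adjusted p = 7.23e-05) and the cartilage chain Col2a1 (-2.21 ± 0.44, adjusted p = 0.000177) were lower.

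Enzymes that hydroxylate collagen, for which ascorbic acid is the cofactor, were lower at day 4 in 7 of 9 cases with 0 higher. The lysyl hydroxylase Plod1 was at 494, 534 and 492 CPM at day 4 and 846, 849.8 and 909.8 CPM at day 2 plus VC (-0.78 ± 0.11, adjusted p = 5.3e-07). The prolyl hydroxylases P4ha3 (-0.81 ± 0.14, adjusted p = 1.43e-05), P3h1 (-0.45 ± 0.11, adjusted p = 0.00241) and P4ha1 (-0.37 ± 0.09, adjusted p = 0.00146) followed. The groups did not overlap for Plod1. Over the whole list of 29 ascorbate-dependent enzymes 7 were lower, all of them collagen hydroxylases, and 2 were higher, both among the 4 HIF hydroxylases, a called share of 31% beside 31.2% of all genes. The higher genes were 0 without day 4 replicate 1 or day 2 plus VC replicate 1 or 2, and 1 without day 2 plus VC replicate 3. The 16 DNA and histone demethylases of the list had a median of 0.11.

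Matrix proteases and their inhibitors had 4 members higher and 5 lower of 16, and the lower ones were 3 without day 2 plus VC replicate 3. The stromelysin Mmp11 was at 59.3, 53.2 and 62.6 CPM at day 4 and 24.7, 23.6 and 22.9 CPM at day 2 plus VC (1.3 ± 0.15, adjusted p = 2.55e-08), and the collagenase Mmp13 was higher as well (1.05 ± 0.18, adjusted p = 2.75e-05). The gelatinase Mmp2 was lower (-0.82 ± 0.12, adjusted p = 1.38e-06). The inhibitors parted, with Timp3 higher (0.76 ± 0.17, adjusted p = 0.000784) and Timp1 lower (-0.79 ± 0.19, adjusted p = 0.00121).

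Known targets of β-catenin were lower more often than higher among those that passed the test. Of 15, 2 were higher and 4 lower, a called share of 40% beside 31.2% of all genes. Their median of -0.14 was -0.47 without day 4 replicate 1 and 0.013 without day 4 replicate 2. With at least 10 counts in each compared library 7 were left, 4 of them lower and 0 higher, with a median of -0.79. Of the 8 inhibitors among them, 1 was higher and 2 lower. Axin2, a scaffold of the β-catenin destruction complex (ENSMUSG00000000142, GRCm39 chromosome 11, 108811175 to 108841609, plus strand), was at 1.47, 1.83 and 3.88 CPM at day 4 and 7.87, 9.06 and 13.5 CPM at day 2 plus VC (log2 fold change -2.08 ± 0.26 SE, adjusted p = 6.88e-08). Its mean was 30.1 CPM at day 0 plus VC and 13.6 CPM at day 4 plus VC, against 0.219 CPM at day 0 and 0.995 CPM at day 2, so each group with VC stood above each group without it. The transcription factor Tcf7 was at 7.38, 6.48 and 11.8 CPM at day 4 and 19.1, 20.4 and 25.6 CPM at day 2 plus VC (-1.34 ± 0.24, adjusted p = 4.6e-05), the R-spondin receptor Lgr6 at 13.3, 13.5 and 18.7 CPM at day 4 and 39.4, 38.1 and 39.1 CPM at day 2 plus VC (-1.36 ± 0.23, adjusted p = 1.66e-05), and the BMP and Wnt inhibitor Apcdd1 was lower by 0.79 ± 0.11 (adjusted p = 9.06e-07). Nkd1, an inhibitor of Dishevelled, went the other way, at 4.72, 4.6 and 4.32 CPM at day 4 and 1.1, 0.118 and 0.839 CPM at day 2 plus VC (2.71 ± 0.35, adjusted p = 1.68e-07). The second higher gene was Lef1, which lost its call in some settings, and leaving out day 4 replicate 2 or 3 or day 2 plus VC replicate 2 or 3 left 1 higher gene.

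Wnt ligands and receptors had more members higher at day 4, 10 of 25 with 3 lower and a median of 0.39, or 0.60 without day 2 plus VC replicate 1. The ligand Wnt4 was at 34, 35.1 and 43.8 CPM at day 4 and 7.29, 8.29 and 10.1 CPM at day 2 plus VC (2.13 ± 0.18, adjusted p = 3.34e-11), and Wnt2 at 18.9, 19.1 and 15 CPM at day 4 and 6.83, 10.5 and 7.28 CPM at day 2 plus VC (1.11 ± 0.27, adjusted p = 0.00156). The receptor Fzd4 was at 15.7, 15.7 and 13.5 CPM at day 4 and 6.54, 5.57 and 3.92 CPM at day 2 plus VC (1.49 ± 0.19, adjusted p = 1.49e-07) and Fzd8 was higher too (0.89 ± 0.13, adjusted p = 9.29e-07). The lower genes were Wnt10a, Fzd5 and Ror2. They were 1 without day 4 replicate 2 and 0 without day 2 plus VC replicate 2.

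TGFβ signalling genes leaned upward at day 4. Of 24 ligands, receptors and Smads, 12 were higher and 2 lower, with a median of 0.33, and all 4 Smads that passed were higher. The ligand Tgfb1 was at 52.5, 53.3 and 40.4 CPM at day 4 and 20.7, 19.9 and 22.7 CPM at day 2 plus VC (1.21 ± 0.13, adjusted p = 2.85e-09). The type I receptor Tgfbr1 (ALK5) was at 81.5, 71.5 and 81.7 CPM at day 4 and 47.9, 48.8 and 48.6 CPM at day 2 plus VC (0.69 ± 0.14, adjusted p = 0.00017), whereas the type II receptor Tgfbr2 was lower, at 489, 454 and 459.9 CPM at day 4 and 717, 688 and 699.5 CPM at day 2 plus VC (-0.59 ± 0.09, adjusted p = 3.65e-06). The groups were separate for all 3 genes. Acvrl1 (ALK1) was higher by 0.61 ± 0.13 (adjusted p = 0.000507), the activin receptor Acvr2a by 0.60 ± 0.14 (adjusted p = 0.0015) and Smad3 by 0.61 ± 0.11 (adjusted p = 6.09e-05). The lower genes were Tgfbr2 and Inhba, a count that was 1 without day 4 replicate 2 and 4 without day 4 replicate 3, and the higher genes were between 8 and 15 when single libraries were left out.

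Known TGFβ targets went both ways, 5 higher and 3 lower of 13. Feedback inhibitors were higher in 3 of 4 cases, namely Smad7 (0.57 ± 0.13, adjusted p = 0.000897), Pmepa1 (0.47 ± 0.089, adjusted p = 9.87e-05) and Ldlrad4 (0.88 ± 0.15, adjusted p = 1.49e-05). Secreted targets were lower in 3 of 7 cases. Periostin (Postn), a matrix protein, was at 124, 86.2 and 161 CPM at day 4 and 488, 363 and 417 CPM at day 2 plus VC (-1.77 ± 0.19, adjusted p = 5.19e-09), Tgfbi at 24.1, 24.4 and 19.6 CPM against 53.3, 54.1 and 52.6 CPM (-1.23 ± 0.10, adjusted p = 9.41e-12), and Ltbp2 was lower as well (-0.63 ± 0.14, adjusted p = 0.000526). BMP targets were higher in 6 of 10 cases with 0 lower and a median of 0.55, or 5 higher and 1 lower without day 4 replicate 3 and 4 higher without day 2 plus VC replicate 2. The inhibitory Smad6 was at 63.8, 68.8 and 71.1 CPM at day 4 and 29.5, 28.3 and 31.2 CPM at day 2 plus VC (1.19 ± 0.14, adjusted p = 5.26e-08) and Id4, an inhibitor of differentiation, at 42.5, 39.3 and 60.3 CPM at day 4 and 15.1, 17.5 and 19.2 CPM at day 2 plus VC (1.45 ± 0.19, adjusted p = 1.9e-07). Among the TGFβ targets that passed the test, feedback and contractile genes were thus higher and secreted matrix genes lower.

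Epithelial genes did not change as a block. Of 17 epithelial genes of the mesenchymal-to-epithelial transition (33 listed), 3 were higher and 5 lower, with a median of -0.38 that became -0.73 without day 4 replicate 3 and 0.15 without the expression filter. The transcription factors among them were lower in 3 of 5 cases with 0 higher. Grhl3, which drives epidermal differentiation, was at 0.38, 0.0522 and 0.594 CPM at day 4 and 4.28, 2.78 and 3.47 CPM at day 2 plus VC (-3.34 ± 0.49, adjusted p = 2.49e-06), and Klf5 was lower too (-1.4 ± 0.28, adjusted p = 0.00023). Desmoplakin (Dsp), the anchor of desmosomes, was at 22, 19.2 and 31.7 CPM at day 4 and 49.3, 54.8 and 65.5 CPM at day 2 plus VC (-1.22 ± 0.18, adjusted p = 1.38e-06), while the junction molecule F11r was higher (0.82 ± 0.17, adjusted p = 0.000192). E-cadherin (Cdh1) was at 2.82, 4.18 and 3.62 CPM at day 4 and 5.33, 6.28 and 6.88 CPM at day 2 plus VC (-0.80 ± 0.25, adjusted p = 0.0144), a call lost in some settings. Of the EMT transcription factors and cadherins, Zeb1 (0.54 ± 0.12, adjusted p = 0.000423) and Snai2 (0.42 ± 0.11, adjusted p = 0.00432) were higher and Twist1 lower (-0.72 ± 0.12, adjusted p = 1.4e-05). The second lower gene, Cdh2, lost its call without day 4 replicate 2 or day 2 plus VC replicate 3.

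Keratins and cornified envelope genes that passed the test were mostly higher at day 4. Of 28 keratins 15 could be tested, and 5 were higher and 1 lower. Their median of 0.79 ranged from 0.35 without day 2 plus VC replicate 3 to 1.34 without day 2 plus VC replicate 2, was 0.43 and 1.23 without day 4 replicates 1 and 3 and 0.47 without day 4 replicate 2, and fell to 0.22 with at least 10 counts in each compared library and to 0.058 without the expression filter. Krt80, a keratin of differentiating epithelium, was at 67, 70.8 and 70.7 CPM at day 4 and 11.5, 15.1 and 13.8 CPM at day 2 plus VC (2.37 ± 0.18, adjusted p = 1.86e-12). It was at 12.6 CPM at day 2 without VC and 208 CPM at day 4 plus VC. Krt8, the keratin of simple epithelia, was at 9.82, 11.4 and 5.45 CPM at day 4 and 3.13, 4.26 and 2.52 CPM at day 2 plus VC (1.43 ± 0.30, adjusted p = 0.000341), and its partner Krt18 had 7, 1 and 2 counts at day 4 and 0 at day 2 plus VC. Krt14, the keratin of basal epidermis, was the 1 lower keratin, at 37.9, 54 and 37.8 CPM at day 4 and 98.9, 117 and 118 CPM at day 2 plus VC (-1.36 ± 0.20, adjusted p = 3.48e-06). Krt14, Krt16 and Krt17 are close relatives among which reads may be split. Of 24 cornified envelope genes 11 could be tested. The 5 tested genes that are not precursor proteins were higher, including the transglutaminase Tgm1 at 9.61, 10.0 and 8.47 CPM at day 4 and 2.2, 2.49 and 2.57 CPM at day 2 plus VC (1.95 ± 0.23, adjusted p = 3.75e-08), corneodesmosin Cdsn at 8.09, 11.8 and 14.9 CPM at day 4 and 2.2, 1.66 and 2.91 CPM at day 2 plus VC (2.35 ± 0.26, adjusted p = 5.46e-09) and the protease Klk8 (1.4 ± 0.24, adjusted p = 2.98e-05). Of the 6 precursor proteins 1, Cnfn, was lower (-1.97 ± 0.47, adjusted p = 0.00186), and without day 4 replicate 3 the lower genes of the list were 2.

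Pluripotency genes were mostly at or below the expression filter in both groups. Of 25 listed, 11 passed the filter, with 1 higher, 2 lower and a median of -0.26 (-0.41 without day 2 plus VC replicate 2). The called share of 27.3% was below the 31.2% of all genes. The higher gene lost its call without day 4 replicate 2 or day 2 plus VC replicate 1 or 2, and the lower genes were 1 without day 4 replicate 1, 2 or 3 or day 2 plus VC replicate 3. L1td1, an RNA-binding protein of pluripotent cells (ENSMUSG00000087166, GRCm39 chromosome 4, 98614971 to 98626717, plus strand), was lower, at 15.5, 17.7 and 15.4 CPM at day 4 and 54.1, 72.3 and 56.7 CPM at day 2 plus VC (log2 fold change -1.91 ± 0.18 SE, adjusted p = 4.81e-09). It was at 0 CPM in both day 0 groups, 5.82 CPM at day 2 and 222 CPM at day 4 plus VC. Nanog had 1, 9 and 1 counts at day 4 and 9, 3 and 0 at day 2 plus VC and was not tested. The induced factors all had lower means at day 4, and of them Myc passed the test, at 222, 197 and 291 CPM at day 4 and 334, 316 and 338 CPM at day 2 plus VC (-0.48 ± 0.11, adjusted p = 0.000652). Pou5f1 (Oct4) was at 70.9, 42.9 and 78.4 CPM at day 4 and 111, 86.2 and 98.6 CPM at day 2 plus VC (-0.62 ± 0.25, adjusted p = 0.0532), Sox2 at 93.3, 66.1 and 123 CPM at day 4 and 146, 118 and 143 CPM at day 2 plus VC (-0.53 ± 0.21, adjusted p = 0.0501) and Klf4 at 208, 161 and 261 CPM at day 4 and 305, 255 and 296 CPM at day 2 plus VC (-0.44 ± 0.18, adjusted p = 0.0582). Within the day 4 group, replicate 2 was the lowest library for all 4 factors and replicate 3 the highest, and the groups overlapped for Sox2 and Klf4. All 4 passed without day 4 replicate 3 or without the expression filter, and 2 did without day 2 plus VC replicate 2. Counts of these genes include reads from the cassette, which cannot be told apart here from those of the endogenous genes.

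Cell cycle genes were lower at day 4. Of 35 S phase genes 25 were lower and 0 higher, with a median of -0.75, and of 27 mitosis genes 24 were lower and 0 higher, with a median of -0.85, against 15.0% lower among all genes. Mki67, whose promoter with 2 CHR matches is printed above, was at 14.4, 11.5 and 31.4 CPM at day 4 and 51.9, 46.6 and 68.1 CPM at day 2 plus VC (log2 fold change -1.54 ± 0.26 SE, adjusted p = 1.55e-05), and day 4 replicate 3 lay nearest to the other group. Cenpe, a kinetochore motor, was at 3.15, 2.56 and 8.53 CPM at day 4 and 14, 13 and 22 CPM at day 2 plus VC (-1.79 ± 0.34, adjusted p = 9.18e-05). Ube2c was at 12.2, 16.4 and 13.8 CPM at day 4 and 30.7, 36.9 and 33.6 CPM at day 2 plus VC (-1.26 ± 0.17, adjusted p = 4.97e-07). The highest day 4 library was below the lowest day 2 plus VC library for each of these 3 genes. Ttk, a kinase of the spindle checkpoint (-1.34 ± 0.27, adjusted p = 0.000178), Ect2 (-1.29 ± 0.20, adjusted p = 3.64e-06) and Aurora A kinase (Aurka, -1.25 ± 0.19, adjusted p = 2.64e-06) followed the same order.

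The lower replication genes came from both roles, with 14 of 20 fork proteins and 11 of 15 helicase and origin proteins lower. Mcm6, with 3 E2F matches in its printed promoter, was at 19.6, 26.3 and 24 CPM at day 4 and 55.5, 54.6 and 57.1 CPM at day 2 plus VC (log2 fold change -1.26 ± 0.14 SE, adjusted p = 1.41e-08), and Pola1, with 1, at 8.36, 10.1 and 9.44 CPM at day 4 and 21.6, 25.5 and 30.8 CPM at day 2 plus VC (-1.48 ± 0.17, adjusted p = 1.58e-08). The licensing factor Cdt1 was at 6.68, 8.57 and 6.47 CPM at day 4 and 15.6, 22.8 and 17.1 CPM at day 2 plus VC (-1.35 ± 0.19, adjusted p = 8.05e-07), and Mcm10 (-1.45 ± 0.30, adjusted p = 0.000284), the polymerase subunit Pole (-1.16 ± 0.21, adjusted p = 3.61e-05) and Uhrf1, which recruits DNA methyltransferase to new DNA (-1.16 ± 0.16, adjusted p = 7.59e-07), were lower. The mean of Mcm6 was 21.5 CPM at day 0, 35 CPM at day 2 and 23.3 CPM at day 4, whose libraries lay on both sides of the day 0 mean. It was 55.7 CPM at day 2 plus VC and 67.7 CPM at day 4 plus VC. Differences from day 0 were not tested. The mean of Mki67 was 19.1 CPM at day 0, 37.4 CPM at day 2 and 19.1 CPM at day 4.

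Some G1 regulators were lower as well. Of 11 cyclins, Cdks and E2Fs, 5 were lower and 1 higher, with 3 lower without day 4 replicate 2. The higher gene, Ccnd1, kept its call only without day 4 replicate 3 when single libraries were left out. Cyclin E1 (Ccne1) was at 17.7, 19 and 18.7 CPM at day 4 and 34.1, 37.2 and 36.9 CPM at day 2 plus VC (-0.97 ± 0.11, adjusted p = 2.48e-08), and Cdk2 (-0.59 ± 0.13, adjusted p = 0.000387) and Cdk4 (-0.52 ± 0.12, adjusted p = 0.000887) were lower. Of 7 Cdk inhibitors 3 were higher and 1 lower. Cdkn1c (p57) was at 4.45, 5.17 and 1.56 CPM at day 4 and 0.579, 1.42 and 0.504 CPM at day 2 plus VC (2.16 ± 0.48, adjusted p = 0.000606) and Cdkn1b (p27) at 38.4, 33.3 and 38.7 CPM at day 4 and 21.1, 21.1 and 27.2 CPM at day 2 plus VC (0.67 ± 0.13, adjusted p = 1e-04). Cdkn1a (p21), the p53-induced inhibitor, was the lower one, at 606, 667 and 519.7 CPM at day 4 and 816, 860.4 and 794 CPM at day 2 plus VC (-0.46 ± 0.099, adjusted p = 0.000396).

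Nucleolar ribosome biogenesis genes were lower at day 4 in nearly all cases, 23 of 26 with 0 higher and a median of -0.76. Nucleophosmin (Npm1, ENSMUSG00000057113, GRCm39 chromosome 11, 33102287 to 33113206, minus strand) was at 593, 670.1 and 551 CPM at day 4 and 1571, 1622 and 1654 CPM at day 2 plus VC (log2 fold change -1.42 ± 0.11 SE, adjusted p = 2.27e-12). Nucleolin (Ncl) was at 289, 264 and 362 CPM at day 4 and 639, 620.2 and 886 CPM at day 2 plus VC (-1.23 ± 0.14, adjusted p = 2.86e-08), the snoRNP protein Nop56 at 39.7, 39 and 46.2 CPM at day 4 and 96.6, 96.3 and 113 CPM at day 2 plus VC (-1.29 ± 0.13, adjusted p = 6.65e-10) and the pseudouridine synthase Dkc1 at 20.4, 18.3 and 23.9 CPM at day 4 and 52.1, 45.8 and 60.0 CPM at day 2 plus VC (-1.33 ± 0.13, adjusted p = 2.86e-10). None of these groups overlapped. Day 2 without VC had Npm1 at 624 CPM, close to its day 4 mean of 605 CPM, whereas day 2 plus VC was at 1616 CPM, day 4 plus VC at 1411 CPM and day 0 plus VC at 445 CPM. The Npm1 difference from day 2 was -0.044 for day 4 (adjusted p = 0.888) and 1.37 for day 2 plus VC (adjusted p = 4.86e-12).

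**Figure D3:**
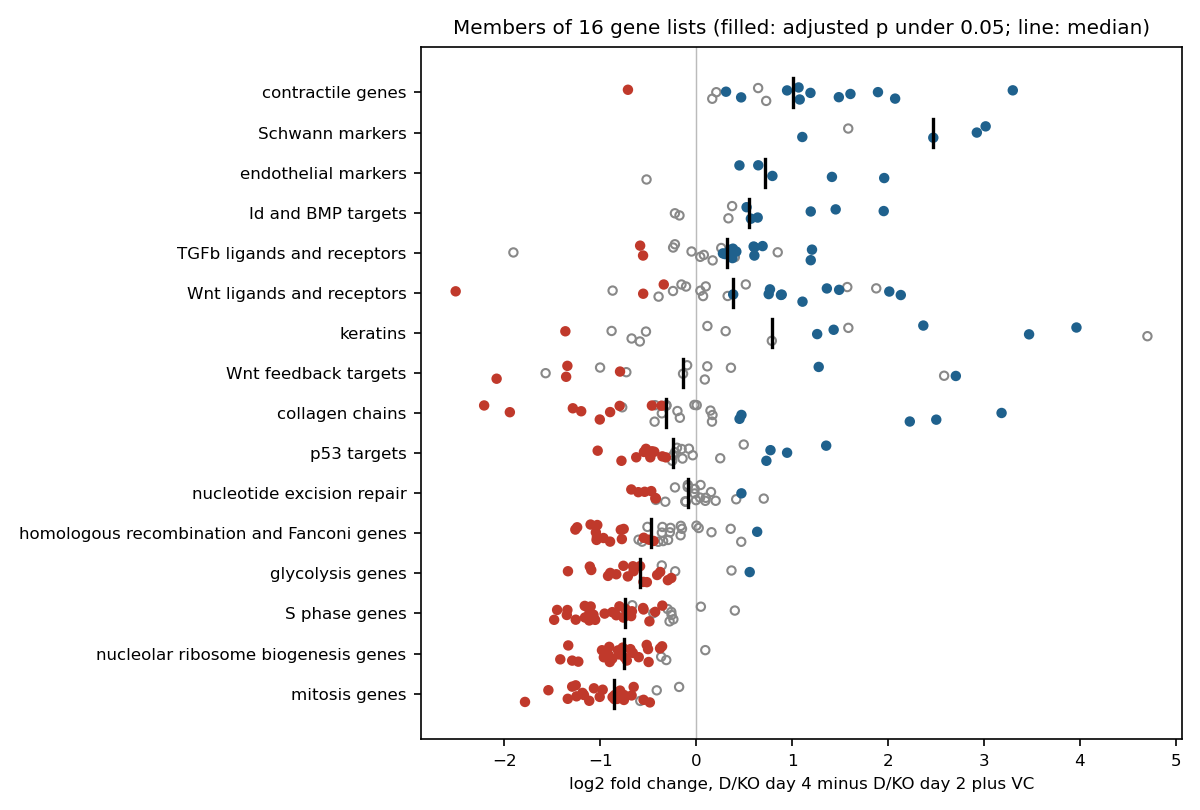
Log2 fold changes (day 4 over day 2 plus VC) of the tested members of 16 gene lists, 1 point per gene, filled where the adjusted p is under 0.05, with a line at each list's median. Mitosis (-0.85), nucleolar (-0.76) and S phase genes (-0.75) lie below 0 and contractile genes (1.01) above it, while Wnt feedback targets (-0.14) fall on both sides.

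Genes of homologous recombination and the Fanconi pathway that passed the test were mostly lower at day 4. Of 34 such genes, 15 were lower and 1 higher, with a median of -0.47, and the lower ones were 9 without day 2 plus VC replicate 3. The higher ones were 0 without day 4 replicate 2 and 2 without day 4 replicate 3. Brca1 was at 3.37, 4.23 and 4.91 CPM at day 4 and 10.0, 7.46 and 9.4 CPM at day 2 plus VC (-1.1 ± 0.22, adjusted p = 0.000196), the helicase Blm at 2.82, 1.78 and 3.24 CPM at day 4 and 5.67, 6.04 and 6.83 CPM at day 2 plus VC (-1.24 ± 0.31, adjusted p = 0.00181), and Fanca, of the Fanconi core complex, was lower (-1.04 ± 0.27, adjusted p = 0.00279). Of 16 end joining genes 5 were lower and 0 higher, or 1 higher without day 4 replicate 3, and the called share of 31.2% equals that of all genes. The Ku subunits Xrcc6 (-0.88 ± 0.12, adjusted p = 3.62e-07) and Xrcc5 (-0.52 ± 0.10, adjusted p = 0.000164), Parp1 (-0.56 ± 0.099, adjusted p = 3.67e-05) and the nuclease Dclre1c (-1.0 ± 0.26, adjusted p = 0.00306) were among them.

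Nucleotide excision repair, the pathway ERCC1 serves, had 6 genes lower and 1 higher of 25, the latter lost without day 4 replicate 2. The called share, 28% of the list, lay near the 31.2% called among all genes, and the median of -0.09 ranged from -0.11 to -0.023 when single libraries were left out. Ercc4, the partner of ERCC1, was at 21.9, 24.1 and 23.8 CPM at day 4 and 27.7, 31 and 35 CPM at day 2 plus VC (-0.43 ± 0.11, adjusted p = 0.00322). Ercc5, the other nuclease of the pathway, was at 28.2, 28.2 and 41.6 CPM at day 4 and 53.4, 49.3 and 54 CPM at day 2 plus VC (-0.68 ± 0.14, adjusted p = 0.000325), and Rpa1 (-0.47 ± 0.08, adjusted p = 2.21e-05), Gtf2h1 of TFIIH (-0.54 ± 0.10, adjusted p = 0.000117) and Rad23b (-0.42 ± 0.085, adjusted p = 0.00019) were lower. Of 16 base excision repair genes 1 was higher and 0 lower, and of 8 mismatch repair genes 4 were lower. Over both lists 20.8% were called, below the 31.2% of all genes, and the lower genes were 2 without day 4 replicate 2. The higher gene, Neil2, lost its call without day 2 plus VC replicate 2 or 3 or day 4 replicate 3.

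Targets of p53 went in both directions, 4 higher and 11 lower of 25, with a median of -0.24. Lower were the death receptor Tnfrsf10b, at 39.7, 34.2 and 43.4 CPM at day 4 and 74.7, 89 and 75.6 CPM at day 2 plus VC (-1.03 ± 0.099, adjusted p = 4.56e-10), Mdm2, the ligase that degrades p53, at 95.8, 89.1 and 100.2 CPM at day 4 and 136, 151 and 130 CPM at day 2 plus VC (-0.55 ± 0.11, adjusted p = 0.000325), and Cdkn1a as given above. Higher were Perp, a desmosome protein, at 64.5, 76.1 and 53.7 CPM at day 4 and 24.3, 31.7 and 20.0 CPM at day 2 plus VC (1.35 ± 0.22, adjusted p = 7.4e-06), Gadd45a (0.95 ± 0.28, adjusted p = 0.00861), Sesn1 (0.77 ± 0.15, adjusted p = 0.00017) and the ribonucleotide reductase subunit Rrm2b (0.73 ± 0.13, adjusted p = 4.78e-05). Perp was under 1 CPM in both day 0 groups and at 130.3 CPM at day 4 plus VC.

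Glycolytic genes were lower at day 4, 17 of 21 with 1 higher and a median of -0.59. The higher gene lost its call without day 4 replicate 3 or day 2 plus VC replicate 2. Pgk1, phosphoglycerate kinase, was at 727, 823 and 698 CPM at day 4 and 1371, 1653 and 1830 CPM at day 2 plus VC (log2 fold change -1.11 ± 0.15 SE, adjusted p = 5.67e-07). Gapdh was at 1384, 1658 and 1051 CPM at day 4 and 2193, 2743 and 2690 CPM at day 2 plus VC (-0.90 ± 0.22, adjusted p = 0.00179), the mutase Pgam1 at 407, 414 and 400.2 CPM at day 4 and 680.4, 782 and 849 CPM at day 2 plus VC (-0.92 ± 0.13, adjusted p = 4.91e-07) and the isomerase Gpi1 at 846, 967 and 712 CPM at day 4 and 1333, 1489 and 1678 CPM at day 2 plus VC (-0.83 ± 0.14, adjusted p = 1.24e-05). The highest day 4 library was below the lowest day 2 plus VC library for each. The glucose transporter Slc2a3 (-1.34 ± 0.17, adjusted p = 7.69e-08) and the lactate transporter Slc16a3 (-1.09 ± 0.18, adjusted p = 8.82e-06) were lower too. Slc2a3 had risen from day 2 by 1.57 at day 4 and by 2.91 at day 2 plus VC (adjusted p = 1.63e-07 and 2.47e-14), while Pgk1 had changed by -0.67 and 0.44 (adjusted p = 0.00268 and 0.0273).

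Hypoxia response genes outside glycolysis, in cultures all kept at low oxygen, had 4 members higher and 3 lower of 14. The kinase Pdk1, which keeps pyruvate from the mitochondria, was lower (-0.92 ± 0.13, adjusted p = 1.05e-06), whereas Ndrg1 was at 146, 152 and 111 CPM at day 4 and 33.2, 26.3 and 41.5 CPM at day 2 plus VC (2.02 ± 0.13, adjusted p = 1.62e-14) and Ankrd37 was higher as well (2.74 ± 0.53, adjusted p = 0.000107). The amino acid response divided likewise, 5 higher and 6 lower of 20. The serine synthesis enzymes Psat1, at 40.3, 47.1 and 35.5 CPM at day 4 and 112, 149.7 and 143 CPM at day 2 plus VC (-1.72 ± 0.15, adjusted p = 2.11e-11), and Phgdh, at 71.4, 84.3 and 75.3 CPM at day 4 and 138, 163 and 172 CPM at day 2 plus VC (-1.03 ± 0.12, adjusted p = 3.67e-08), were lower. The stress factors Trib3, at 19.8, 19.2 and 13.1 CPM at day 4 and 2.03, 3.32 and 3.86 CPM at day 2 plus VC (2.5 ± 0.31, adjusted p = 8.59e-08), Ddit3 (CHOP, 1.3 ± 0.22, adjusted p = 2.27e-05) and Atf5 (1.27 ± 0.13, adjusted p = 1.36e-09) and the proline enzyme Pycr1 (1.2 ± 0.15, adjusted p = 6.25e-08) were higher. Of 16 NRF2 targets 3 were lower, Txnrd1 (-0.74 ± 0.18, adjusted p = 0.00131), Hmox1 (-0.65 ± 0.14, adjusted p = 0.000564) and G6pdx (-0.57 ± 0.11, adjusted p = 0.000112), and 0 higher by the edgeR test, or 3 higher without day 4 replicate 3 and 2 without the expression filter or in a fit of the compared libraries alone. The called share was 18.8%, below that of all genes. Cholesterol synthesis genes counted 6 higher and 2 lower of 25, a called share of 32% near the 31.2% of all genes, but 2 to 3 higher when day 4 replicate 3 or any single day 2 plus VC library was left out and 1 lower without day 4 replicate 1 or 2.

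Secreted immune mediators went both ways. Of 15 secretory phenotype genes 4 were higher and 3 lower, or 2 higher among the 10 with at least 10 counts in each compared library. The chemokine Ccl8 was at 8.03, 10.6 and 9.93 CPM at day 4 and 32, 30.4 and 20.5 CPM at day 2 plus VC (-1.54 ± 0.21, adjusted p = 4.29e-07), Cxcl14 at 379, 410.3 and 428 CPM at day 4 and 696, 564 and 680.5 CPM at day 2 plus VC (-0.67 ± 0.14, adjusted p = 0.000204) and the cytokine Lif at 1.3, 1.57 and 1.51 CPM at day 4 and 7.06, 4.5 and 4.14 CPM at day 2 plus VC (-1.84 ± 0.28, adjusted p = 3.18e-06), all lower at day 4. Ccl2 (0.91 ± 0.24, adjusted p = 0.0033) and Ccl11 (1.71 ± 0.35, adjusted p = 0.000208) were higher. Among 12 complement genes 2 were higher and 2 lower, a called share of 33.3% near the 31.2% of all genes. Complement component C4b was at 17.7, 18.8 and 17.2 CPM at day 4 and 5.38, 4.91 and 4.25 CPM at day 2 plus VC (1.88 ± 0.25, adjusted p = 2.92e-07). Of 23 interferon-stimulated genes 2 were lower and 0 higher, a called share of 8.7%, and none passed without day 4 replicate 1 or day 2 plus VC replicate 1 or 2, and 1 without day 4 replicate 2 or 3. Of 15 immediate early genes 5 were higher and 1 lower, a called share of 40% beside 31.2% of all genes. The higher ones were 3 without day 4 replicate 1 or day 2 plus VC replicate 2. The lower gene lost its call when any single library of the 6 was left out. Jund was at 119, 138 and 94.8 CPM at day 4 and 43.8, 47.7 and 34.8 CPM at day 2 plus VC (1.48 ± 0.18, adjusted p = 4.27e-08), and Jun (0.47 ± 0.1, adjusted p = 0.000354) and Atf3 (1.33 ± 0.34, adjusted p = 0.00291) were higher.

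Hox genes, which record the position a cell came from along the body axis, were higher in 8 of 34 cases and lower in 2, a called share of 29.4% beside 31.2% of all genes. Their median of 0.37 fell to 0.22 without day 4 replicate 3. All 3 called HoxD genes were higher, Hoxd8 at 9.61, 11 and 6.04 CPM at day 4 and 3.82, 2.9 and 2.69 CPM at day 2 plus VC (1.5 ± 0.29, adjusted p = 0.000124), Hoxd9 at 6.41, 7.68 and 6.26 CPM at day 4 and 2.14, 2.6 and 3.25 CPM at day 2 plus VC (1.34 ± 0.29, adjusted p = 0.000457) and Hoxd10 at 4.29, 3.4 and 2.7 CPM at day 4 and 1.22, 0.829 and 1.12 CPM at day 2 plus VC (1.71 ± 0.40, adjusted p = 0.00119). Of the 4 called HoxC genes, Hoxc12 was at 46.4, 35.7 and 38.5 CPM at day 4 and 28, 24.5 and 27 CPM at day 2 plus VC (0.60 ± 0.14, adjusted p = 0.000782). Hoxa4 was lower at under 3 CPM in each library (-2.91 ± 0.63, adjusted p = 0.000502), and the lower genes were 1 when any single library other than day 2 plus VC replicate 2 was left out. Of 11 DNA methylation genes 2, Dnmt1 (-0.76 ± 0.13, adjusted p = 2.45e-05) and Uhrf1, were lower and 1, lost without day 4 replicate 1, was higher, and the called share of 27.3% was below that of all genes. Of 12 mitochondrially encoded genes 2 were lower, a called share of 16.7% that was below the 31.2% of all genes. The lower ones were 0 without day 4 replicate 3, 1 without any other single library of the 6 and 7 without the expression filter.

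**Figure D4:**
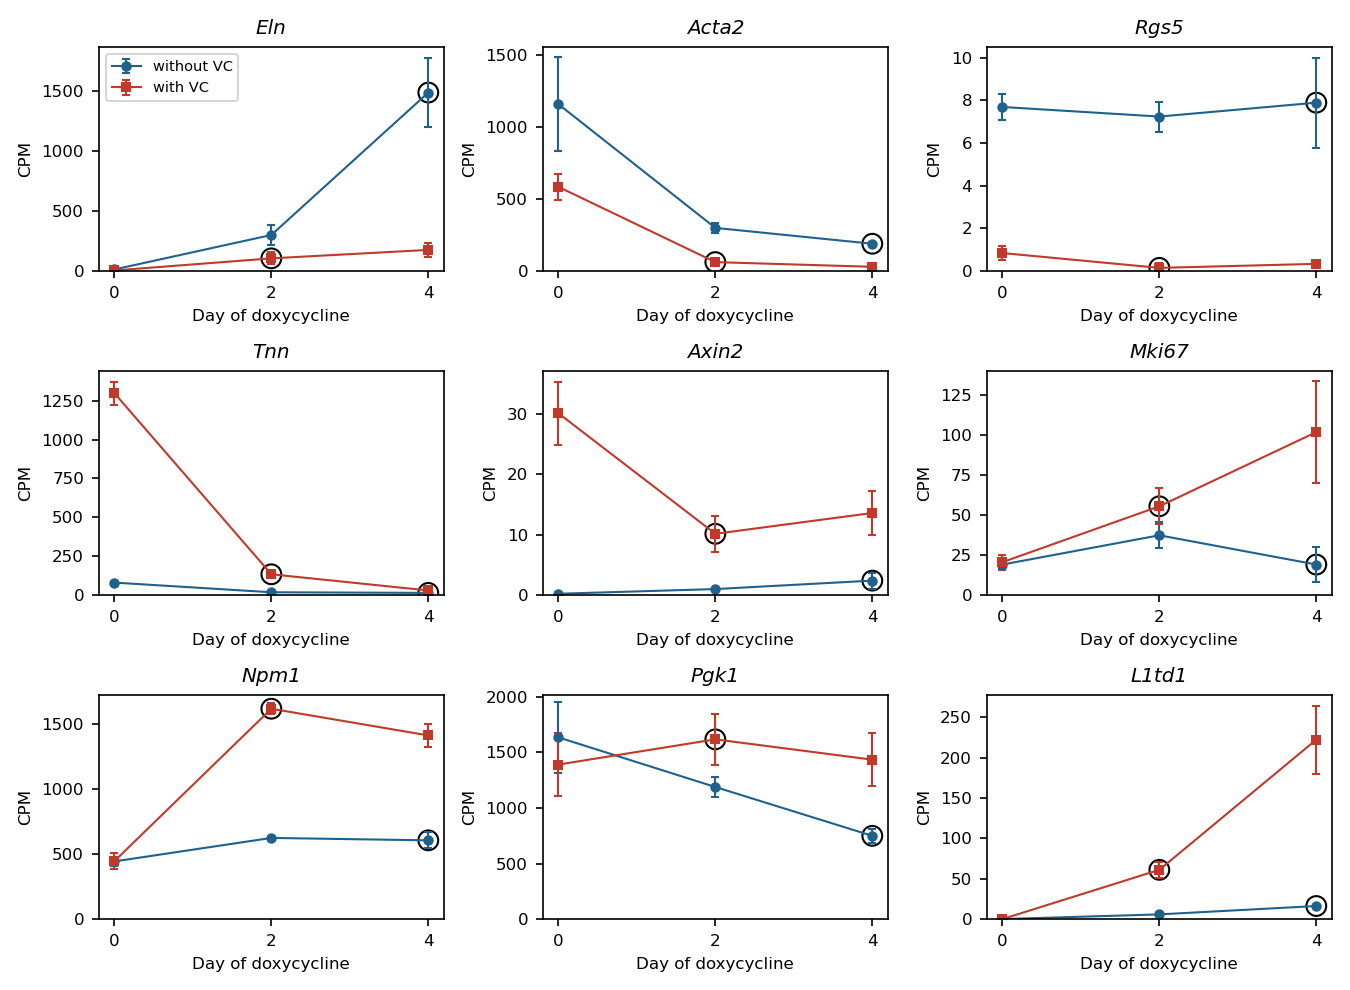
Mean CPM (± SD, n = 3) of 9 genes in D/KO cells over the 4 days of the time course, 1 line for cells given VC and 1 for cells without it, with the 2 compared groups circled. Npm1 at day 4 (605 CPM) lies near its day 2 level without VC (624 CPM), Eln is highest at day 4 without VC (1491 CPM), and Acta2 lies below its day 0 mean at each later time on both lines.

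In the WT line the same contrast also separated many genes. There, 2443 genes were higher (15.4%) and 2935 lower (18.5%) at day 4, with a median log2 fold change of -0.0053. With library totals the split there was 4176 higher and 1665 lower, after a shift of the median gene to 0.176. The difference between the lines passed the test for 2418 genes (15.3%), 1445 with a more positive change in D/KO cells (9.13%) and 973 with a more negative one (6.15%). Leaving out D/KO day 4 replicate 2 lowered that count to 1480, and leaving out WT day 2 plus VC replicate 1 lowered it to 1566.

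Lists differed between the lines for few or many of their members, and these counts are read against the 15.3% of all genes. Of the S phase genes 23 were lower in WT cells, with a median of -0.78 beside -0.75 in D/KO cells. For 6 of 35, a share near that of all genes, the difference between lines passed the test. It was more positive in D/KO cells for 2 and more negative for 4. Of the mitosis genes 26 were lower in WT cells, with a median of -1.70, and for 12 of 27 the difference between lines passed the test, each with the larger decrease in WT cells. Nucleolar genes stood in the opposite order. They were lower in 13 of 26 cases in WT cells with a median of -0.32, and 10 differed between lines, each with the larger decrease in D/KO cells. Dkc1 changed by -1.33 in D/KO and -0.14 in WT cells (difference -1.19, adjusted p = 1.6e-05). For Npm1, at -1.42 and -1.29, the difference did not pass (-0.12, adjusted p = 0.629).

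Contractile genes were higher in 6 and lower in 2 of 16 cases in WT cells, with a median of 0.18, and 8 differed between lines, all more positive in D/KO cells. Acta2 changed by 1.61 in D/KO and by -0.022 in WT cells (difference 1.63, adjusted p = 9.23e-06), and Myh11 by 3.3 and -0.18 (difference 3.48, adjusted p = 0.00272). Of the endothelial markers, Pecam1, Cdh5, Kdr, Cldn5 and Vwf had WT group means of at most 0.987 CPM (Vwf at day 0 plus VC), whereas Tek was at 95.1 CPM at day 4 and 97.7 CPM at day 2 plus VC in WT cells. Their part in the difference of the contractile genes between lines was not tested. Of the TGFβ ligands, receptors and Smads, 8 differed between lines, all more positive in D/KO cells, for example Tgfb1 (difference 0.88, adjusted p = 0.000875) and Tgfbr1 (0.92, adjusted p = 0.0013).

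Glycolysis genes were lower in 5 and higher in 3 of 21 cases in WT cells, with a median of -0.14. Of them 7 differed between lines, each more negative in D/KO cells, such as Pgk1 (difference -0.97, adjusted p = 0.00204). Hypoxia response genes were higher in 9 and lower in 0 of 14 cases in WT cells, and 8 differed between lines, 7 of them more negative in D/KO cells. Amino acid response genes had a median of 0.61 in WT and -0.11 in D/KO cells (-0.21 to -0.068 when single D/KO libraries were left out), and all 9 that differed were more negative in D/KO cells. NRF2 targets had a median of -0.71 in WT and 0.0081 in D/KO cells (-0.12 to 0.070 when single D/KO libraries were left out), and all 8 that differed were more positive in D/KO cells. Of the p53 targets 12 differed between lines, 9 more negative and 3 more positive in D/KO cells. Mdm2 was higher at day 4 in WT cells (0.29, adjusted p = 0.0484) and lower in D/KO cells (-0.55), with a difference of -0.83 (adjusted p = 0.000515).

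Carbonic anhydrase 8 (Car8) passed the test of the difference between lines (adjusted p = 0.000666). It was at 7.33, 7.42 and 6.47 CPM at day 4 and 0.926, 1.42 and 1.46 CPM at day 2 plus VC in D/KO cells (2.47 ± 0.36, adjusted p = 2.41e-06), and its WT means of 0.0177 CPM at day 4 and 0.236 CPM at day 2 plus VC are too low for a fold. Krt14 was lower at day 4 in both lines but by -1.36 in D/KO and -5.13 in WT cells (difference 3.77, adjusted p = 5.07e-06). Col15a1 was higher in D/KO cells (2.23) and changed by -0.10 in WT cells (difference 2.33, adjusted p = 7.16e-10). Axin2, by contrast, was lower in both lines (-2.08 and -2.85), and the difference between lines did not pass the test (0.77, adjusted p = 0.168).

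**Figure D5:**
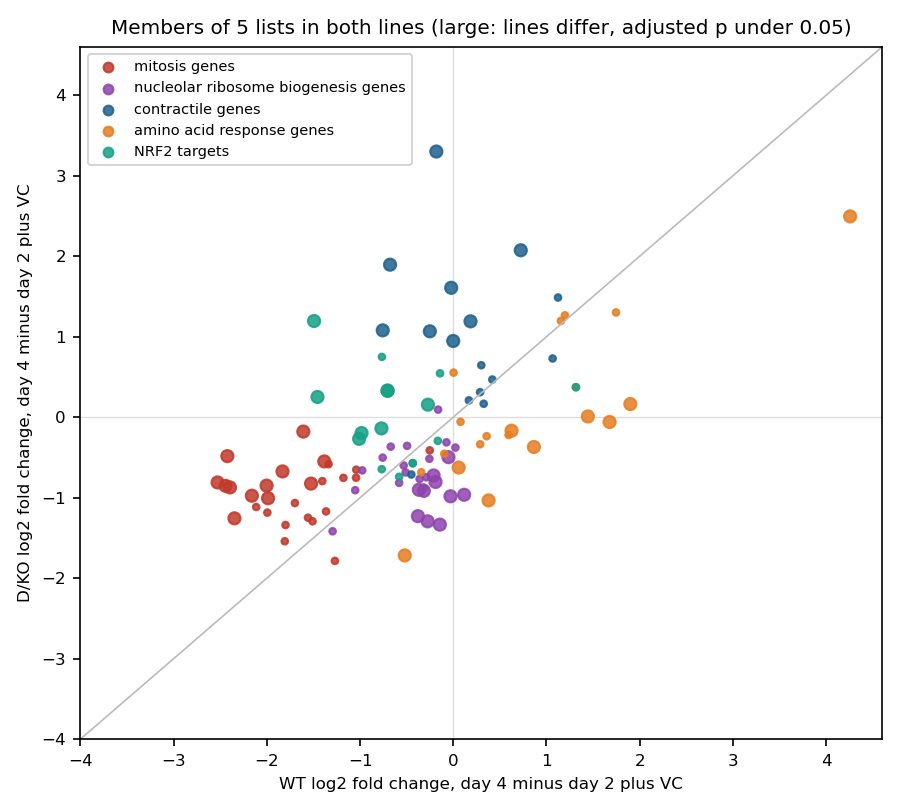
Log2 fold change of day 4 over day 2 plus VC in the WT line (x axis) and the D/KO line (y axis) for members of 5 gene lists, 1 point per gene, large where the difference between lines passed the test, with a line at equal change. The large points of mitosis (12) and contractile genes (8) lie above the line and those of nucleolar genes (10) below it.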

How the data were processed

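RNA was measured by 150 bp paired-end sequencing of polyA-selected libraries. Per the labels and methods, the authors trimmed the reads with Trim Galore after FastQC, aligned them to GRCm39 with HISAT2 and counted them with featureCounts of Subread, and they deposited raw read counts per gene with gene coordinates and length. Deposited gene IDs were named from GENCODE M39, in which 56236 of 56980 were found (98.7%). Gene coordinates are those of the deposited table. List symbols missing from GENCODE were matched through older names in RefSeq or through known renamings. The table of the inhibitor experiment was not used.

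All 36 reprogramming libraries, 12 groups of 3, were fitted together in edgeR 4.0.16 (R 4.3.3) with TMM scaling and the quasi-likelihood test after filterByExpr (minimum count 10, total 15), and the contrasts were D/KO day 4 minus D/KO day 2 plus VC, the same in WT cells, and the difference of both. SE is the log2 fold change divided by the square root of F. The scripts were tested on simulated data. Alternatives were DESeq2 1.42.0, other scalings and filters, subsets of libraries, a 2-fold minimum (an absolute log2 fold change of 1) and leaving out each library. The pairing of libraries was not available from the labels.

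The members, gene lists and tests were chosen with earlier results of these data known. Genes were named by a rule: the 12 highest and 12 lowest fold changes among called genes with no overlap between groups and a mean of at least 5 CPM in the higher group, leaving out predicted Gm and Rik genes, the 5 smallest p-values in each direction, the 5 largest differences between lines, and up to 6 called members of each list in each direction, with members needed to describe a list. Some genes that the rule names are not reported here. Promoters came from the RefSeq table on GRCm38.p6, matched by symbol. The motifs were chosen with the values known. Pluripotency, keratin and cornified genes below the filter were given by count only. Total counts of 17008108 to 18437695 per library set the precision of low genes.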

Additional observations from a re-analysis of the deposited data

Results flagged for a closer look

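The difference of day 4 from day 2 plus VC was not the same in both lines. It passed the edgeR test of the difference between lines (D/KO change minus WT change) for 2418 of 15832 genes. The 2 lines differ in genotype, sex and age at once, and which of these goes with the difference cannot be told apart.

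Among the genes named for the size or the p-value of their change, those higher at day 4 in D/KO cells that had the more positive change there were Car8 (5.76 on the log2 scale), Rgs5 (4.83, D/KO 5.62 and WT 0.79), Nppc, a natriuretic peptide (4.77), Pitpnm3 (3.40), Dapk2 (2.75), Ppp1r3c (2.58), Sostdc1 (2.49), Nos1 (2.28), Eln (1.94), Aldh1a3 (1.62), Mturn (0.95) and Dkk3 (0.78). Nppc was at 22, 25.4 and 17.3 CPM at day 4 and 3.94, 1.18 and 1.34 CPM at day 2 plus VC in D/KO cells, and its difference between lines lost significance without WT day 2 plus VC replicate 1 or 2, with a highest adjusted p of 0.0722. The WT means of Car8 (0.0177 CPM at day 4) and Nppc (0.0531 CPM at day 4) and the D/KO day 2 plus VC mean of Rgs5 (0.15 CPM) are near 0, so the size of these differences is uncertain. It was 7.55 for Car8 without WT day 4 replicate 2, 6.97 for Rgs5 without D/KO day 2 plus VC replicate 3 and 5.53 for Nppc without D/KO day 2 plus VC replicate 1.

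Those lower at day 4 in D/KO cells that had the more negative change there were Clec2g (-4.52, D/KO -4.85 and WT -0.33), Sfrp2 (-2.42, D/KO -2.37 and WT 0.056), Cpxm1 (-1.74), Dpep1 (-1.46), Tnn (-1.13), Dpt (-1.13), Lum (-0.91), Aebp1 (-0.76) and Thbs3 (-0.58). Hbb-y, an embryonic globin whose reads may be shared with its relatives, differed by -4.42. It was at 11.6, 14.4 and 6.04 CPM at day 4 and 6.37, 9.18 and 6.16 CPM at day 2 plus VC in D/KO cells (0.56 ± 0.28, adjusted p = 0.135) and, on average, 1.45 CPM at day 4 and 0.0405 CPM at day 2 plus VC in WT cells (adjusted p = 1.29e-05), and its difference between lines was -7.12 without WT day 2 plus VC replicate 3.

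Groups of 3 libraries are too small for a test of single outlying values, and none was made.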

How the results depend on the processing

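The choice of test, filter and fitted libraries moved the counts of genes by less than 1.5 times. DESeq2 called 2745 genes higher and 2436 lower in D/KO cells, and the fit on the compared libraries alone 2227 and 2005. A minimum of 2-fold left 876 higher and 554 lower genes in D/KO cells, 934 and 733 in WT cells, and 919 that differed between lines. Scaling by library totals gave 4176 higher and 1665 lower genes in WT cells. When single libraries were left out, the counts ranged from 2012 to 2436 higher and from 1828 to 2295 lower in D/KO cells, from 1671 to 2096 higher and from 2141 to 2659 lower in WT cells, and from 1480 to 3401 for the difference between lines. The lowest of these, 1480, was without D/KO day 4 replicate 2, and 1566 was without WT day 2 plus VC replicate 1, and the cause was not tested. Of 279 results for single named genes, 212 kept their direction and their side of the threshold under every alternative other than the 2-fold minimum, and 0 reversed. Of 44 list medians, 15 moved by less than 1 SD between libraries under every alternative. The principal components from 2000 and from all genes, and the counts per list without single libraries, were chosen after seeing the data. No paired analysis was possible because the labels number the libraries consecutively and give no replicate number that is shared between groups. Depth limits the genes near the filter, such as most pluripotency genes and the low keratins.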
